A study of Mus musculus with 6 samples.

Results

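Sodium channels, calcium channels and TRP (transient receptor potential) channels were examined in spinal cord after contusion. The genes were taken by symbol. Voltage-gated sodium channel genes begin with Scn and a digit, calcium channel genes with Cacna, Cacnb or Cacng, and TRP genes with Trpa, Trpc, Trpm or Trpv and a digit. Among the 43432 genes counted, 64 symbols matched, and the 48 with at least 10 counts summed over the 6 libraries are the channel genes described here. One of them, Trpc4ap, encodes a protein that binds a TRP channel and is not a channel itself. The samples were spinal cord tissue of wildtype C57BL/6 mice. The SCI group (n = 3 mice) had one side of the cord contused at C5, the fifth cervical level, by an impactor set to 50 kdyn, and its tissue was taken 4 h later. The sham group (n = 3 mice) had the laminectomy alone, the removal of bone that exposes the cord. The labels used here gave a collection time for the SCI group only. The ages of the mice and the length of cord taken were not used here.

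Voltage-gated sodium channels open when a neuron depolarises and carry the upstroke of the action potential. A large pore-forming alpha subunit is accompanied by a small beta subunit that tunes gating and adheres to neighbouring cells. Voltage-gated calcium channels turn depolarisation into calcium entry, which triggers transmitter release. Their alpha1 pore is brought to the membrane by alpha2delta and beta subunits, and most of the gamma family serves as auxiliary subunits of AMPA-type glutamate receptors. TRP channels pass cations in response to lipids, heat, stretch or oxidants. Entry of sodium and calcium into axons is a known route of damage after a blow to the cord.

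The libraries held 8229961, 6499952 and 5364263 counts in SCI 1 to 3 and 7591326, 11543633 and 3407176 counts in sham 1 to 3. Reads came from near the 3′ end of transcripts, so a level in CPM (counts per 1000000 counts, scaled here by TMM library factors) needs no division by transcript length. Markers of neurons, astrocytes, oligodendrocytes and microglia were present in every library, as the tissue label implies. Markers of hepatocytes were present too. The 12 listed, Alb and Ttr among them, took 6.94% to 7.19% of counts in SCI libraries and 5.57% to 10.53% in sham libraries, highest in sham 2 and lowest in sham 3. None of the 12 was at 0 in any library. The summed level of 6 erythroid markers was 1580 to 4270 CPM in SCI and 609 to 838 CPM in sham, and 5 of the 5 tested were called higher. That of 8 neutrophil markers was 52.8 to 71.4 CPM in SCI and 14.3 to 47.1 CPM in sham, and 0 of the 5 tested were called. No marker of either list was at 0 throughout. Their part in the channel levels was not tested. Leaving out sham 2 or sham 3 moved many channel values, and turned the sign of some. Values without them are given for some genes, and for all tested channel genes as counts of signs. The design text gives 3 mice in each group, but nothing else shows that libraries of a group came from separate preparations.

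No channel gene passed the test of SCI against sham. Of the 48, 40 had enough counts to be tested, and 0 were higher and 0 lower at an adjusted p under 0.05 (edgeR quasi-likelihood test, Benjamini-Hochberg adjustment over 13560 genes). Across all genes tested 0.885% were called higher and 0.0442% lower, 0.929% in either direction. An unadjusted p under 0.05 was found for 0 of the 40 channel genes, against 7.38% of all genes. DESeq2 called 0 channel genes too, with 141 higher and 11 lower over all genes. Limma voom also called 0, with 109 higher and 4 lower over all genes. The smallest p of any member, 0.0519, belonged to Cacnb3 (adjusted p = 0.682). The median log2 fold change (SCI over sham) of the tested channel genes was 0.06, with 23 positive and 17 negative, and that of all genes tested was -0.0025.

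The groups overlapped in 39 of the 40 tested genes. The exception was Cacnb3, or 2.5% of the members, where 13.7% of all genes tested did not overlap, 7.73% with SCI above sham and 5.94% with SCI below. For 30 of the 40 the log2 fold change was smaller than 0.3 in either direction. The 95% interval of the log2 fold change lay wholly between -1 and 1, that is within 2-fold, for 26 genes, and reached past that range for 14. Of the 24 genes with a mean level of at least 10 CPM, 22 had an interval within 2-fold, and over all 24 the bounds ran from -1.03 to 0.75. The 14 wider intervals leave differences beyond 2-fold possible in those genes. In whole tissue, fewer cells of a type and less RNA in each cell cannot be told apart.

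**Figure D1:**
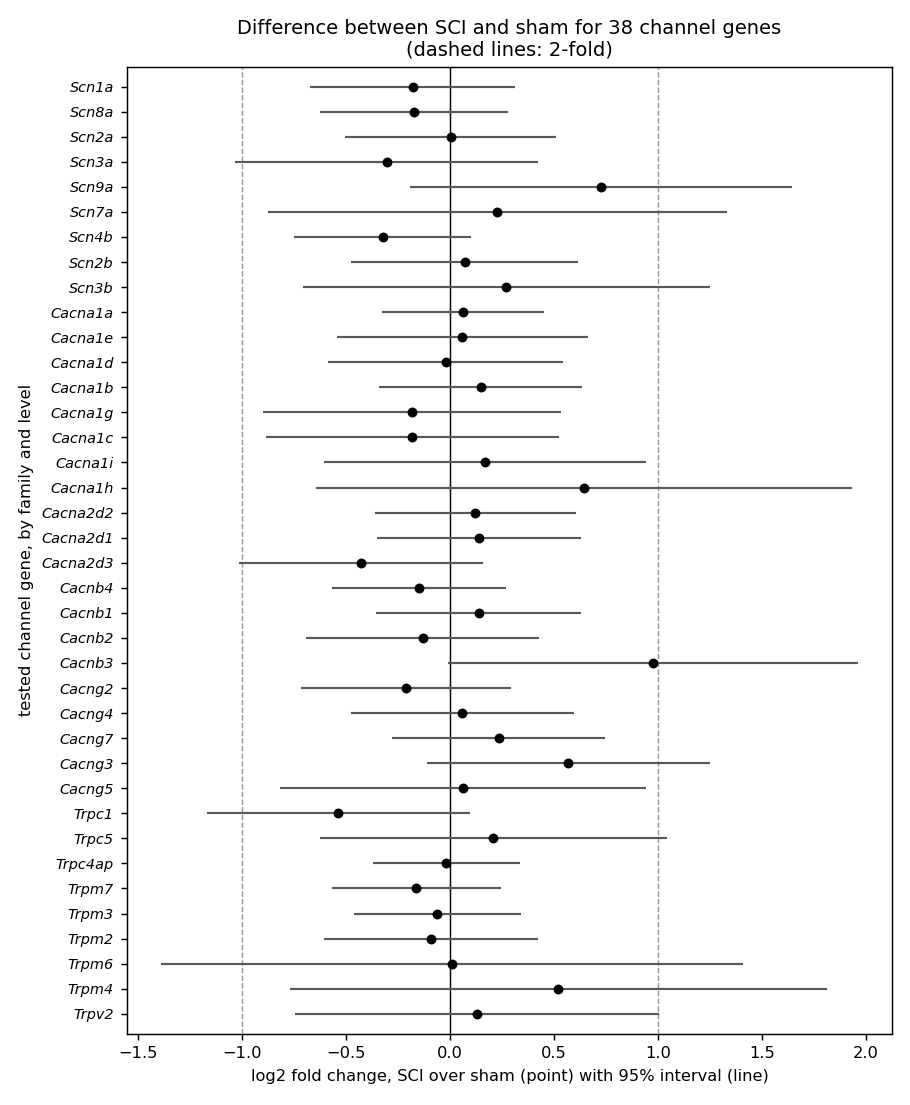
Log2 fold change of SCI over sham (horizontal axis, point) with its 95% interval (line) for 38 of the tested channel genes, grouped by family and ordered by level within each. Every interval drawn includes 0, and 25 of the 38 lie between the dashed lines at -1 and 1.

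The channel genes differed from one another far more than the groups did. Mean levels over the 6 libraries reached 195 CPM for Scn1a and were under 1 CPM for several members. Sodium channel alpha subunits held 30.8% of the summed level, calcium channel gamma subunits 16.03%, sodium channel beta subunits 15.1%, and TRPC channels 1.33%.

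**Figure D2:**
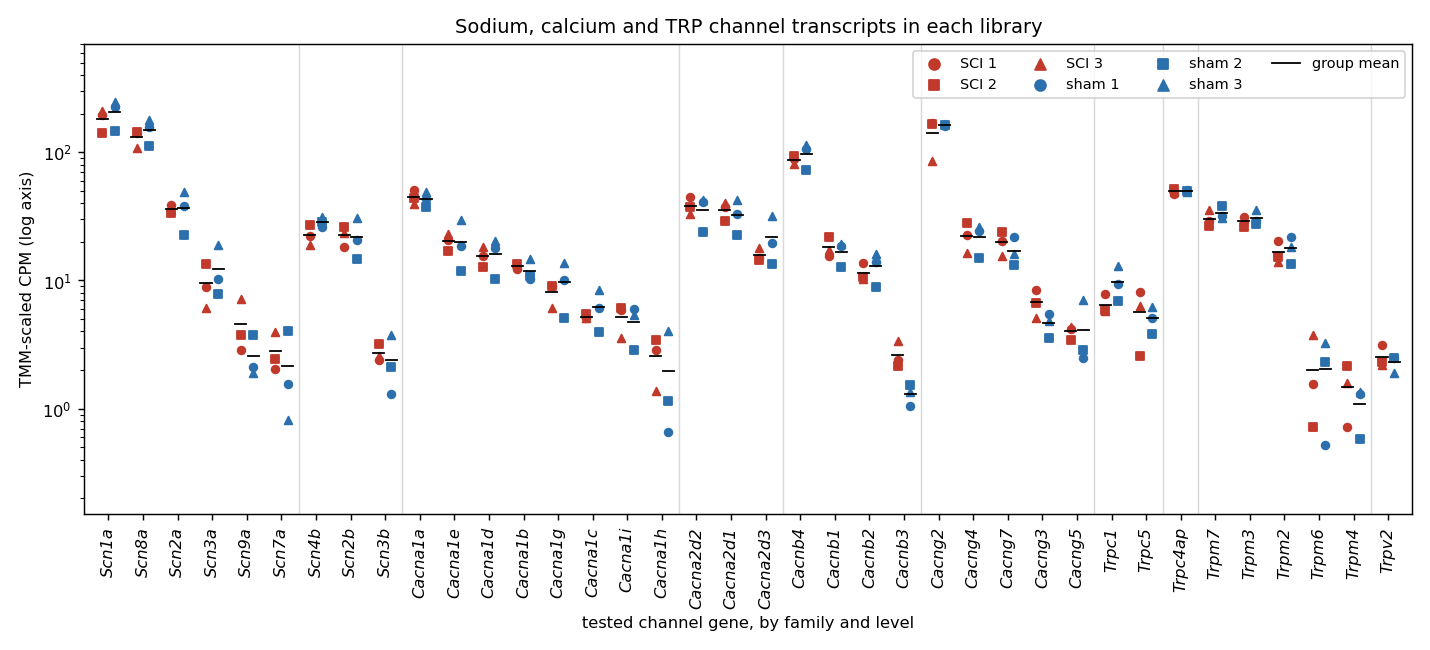
TMM-scaled CPM (vertical log axis) of 38 of the tested channel genes in each library, with SCI in red left of sham in blue, symbol shapes for the replicates and a black line at each group mean. Groups overlap in each gene drawn except Cacnb3, and Cacng2 has 1 SCI library, SCI 3, far under the other 5.

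Among sodium channel alpha subunits, Scn1a, the pore of many inhibitory interneurons, was the most abundant. Its level was 196, 143 and 211 CPM in SCI 1 to 3, against 227, 147 and 249 CPM in sham 1 to 3. The groups overlapped, and the log2 fold change was -0.18 ± 0.23 (SE, adjusted p = 0.935). It was -0.39 without sham 2 and -0.03 without sham 3. Scn8a, the main channel of mature nodes of Ranvier, had 142, 145 and 108 CPM in SCI against 157, 112 and 177 CPM in sham, again with overlap (-0.17 ± 0.21, or -0.35 without sham 2 and -0.03 without sham 3). Scn1a was above Scn8a in 5 of the 6 libraries, and in SCI 2 the order was reversed, so the levels of this pair were not separated beyond their spread. Scn2a, the channel of unmyelinated axons, was lower than Scn8a in all 6 libraries, at 36.0 ± 2.68 CPM in SCI and 36.5 ± 13.3 CPM in sham (SD, n = 3 each). Its log2 fold change was 0.00 with a 95% interval of -0.51 to 0.51, -0.27 without sham 2 and 0.26 without sham 3. Scn3a, a channel of the developing nervous system that rats re-express after nerve and cord injury, was at 9.48 ± 3.66 CPM in SCI and 12.3 ± 5.83 CPM in sham (log2 fold change -0.30 ± 0.34). The direction turned without sham 3 (0.09 ± 0.32), and the value was -0.57 ± 0.32 without sham 2, -0.64 ± 0.38 without SCI 2 and -0.10 ± 0.35 without SCI 3. Scn7a, which encodes a sodium-sensing relative, was at 2.82 ± 1.00 CPM in SCI and 2.14 ± 1.68 CPM in sham, with a log2 fold change of 1.09 without sham 2 and -0.06 without sham 3.

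Scn9a, Scn10a and Scn11a encode the sodium channels of pain-sensing neurons, whose cell bodies lie in dorsal root ganglia. Scn9a was at 2.89, 3.74 and 7.12 CPM in SCI 1 to 3, against 2.10, 3.75 and 1.89 CPM in sham 1 to 3. SCI 3 stood above the other libraries, while SCI 2 and sham 2 were level. Its log2 fold change was 0.73 ± 0.43 (adjusted p = 0.803), 1.13 ± 0.50 without sham 2 (adjusted p = 0.540) and 0.29 ± 0.45 without SCI 3. Scn10a and Scn11a lie side by side on chromosome 9 (GRCm38, 119608456 to 119719322 and 119753759 to 119825456) and had too few counts to be tested with the filter. Scn10a had 0, 10 and 7 counts in SCI 1 to 3 and 0, 1 and 0 counts in sham 1 to 3. Scn11a had 0, 7 and 6 counts in SCI and 0, 6 and 0 counts in sham. Both were thus seen in SCI 2, SCI 3 and sham 2 and in no other library. A count of 0 allows up to 3 counts, or 0.365 CPM in SCI 1, 0.395 CPM in sham 1 and 0.880 CPM in sham 3. Per total counts, a measure chosen after the counts were seen, the ratio of SCI to sham was 19.1 for Scn10a, with a 95% exact counting interval of 2.99 to 797, and 2.43 for Scn11a (0.862 to 7.80). These intervals cover counting error only. With every gene kept in the fit Scn10a reached 3.90 ± 1.38 on the log2 scale and was not called (edgeR adjusted p = 0.235).

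Of 10 sensory neuron markers some were highest in the same libraries and others were not. Pirt, a membrane protein of sensory neurons, had 0, 15 and 33 counts in SCI and 1, 19 and 0 counts in sham. Avil, the actin-binding protein advillin, had 6, 17 and 12 counts in SCI and 4, 32 and 2 counts in sham. All 10 sensory neuron markers listed had at least 1 count in the series, and their summed level was 60.8 to 77.2 CPM in SCI libraries and 60.6 to 98.4 CPM in sham libraries. Prph, Calca and Tac1, which cord neurons also express, make up most of that sum. Calca, a neuropeptide gene, was at 20.7, 25.1 and 30.4 CPM in SCI and 36.0, 49.8 and 24.3 CPM in sham. Tac1, the gene of substance P, was at 18.2, 22.9 and 13.6 CPM in SCI and 14.8, 14.9 and 16.8 CPM in sham. Isl1, a transcription factor, was at 2.41, 1.58 and 1.98 CPM in SCI and 2.49, 3.07 and 0.811 CPM in sham. Calca and Isl1 were thus higher in sham 1 than in SCI 2 or SCI 3, unlike Pirt and Avil. The part of sensory ganglion or root tissue in the Scn10a and Scn11a counts was not tested.

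**Figure D3:**
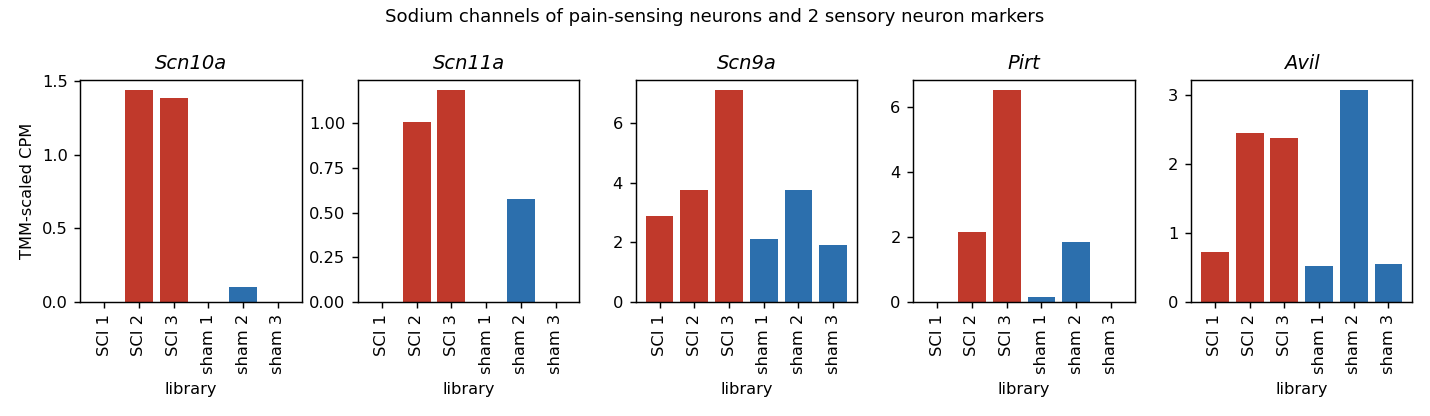
TMM-scaled CPM (vertical axes, each with its own scale from 0) of 3 sodium channel genes of pain-sensing neurons and of the sensory neuron markers Pirt and Avil in each library, SCI in red and sham in blue. Scn10a, Scn11a, Pirt and Avil are highest in SCI 2, SCI 3 or sham 2 and at or near 0, or lowest, in SCI 1, sham 1 and sham 3.

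Sodium channel beta subunits modulate gating. Scn4b, whose product supports resurgent current in fast-firing neurons, had 22.2, 26.9 and 18.8 CPM in SCI and 26.1, 28.4 and 31.1 CPM in sham. The groups met only at SCI 2 and sham 1, and the log2 fold change was -0.32 ± 0.20 with a 95% interval of -0.75 to 0.10 (adjusted p = 0.812). Scn2b and Scn3b had log2 fold changes of 0.07 ± 0.26 and 0.27 ± 0.46.

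Of the calcium channel alpha1 subunits, Cacna1a, the P/Q-type pore of most fast synapses, had the highest level. Cacna1a was at 51.2, 43.6 and 39.3 CPM in SCI and 43.2, 37.6 and 48.7 CPM in sham, with a log2 fold change of 0.06 ± 0.18 and a 95% interval of -0.33 to 0.45. The R-type pore Cacna1e was lower than Cacna1a in all 6 libraries, at 20.3 ± 3.02 CPM in SCI and 20.1 ± 9.04 CPM in sham. The N-type pore Cacna1b, a target of spinal pain drugs, was at 13.0 ± 0.623 CPM in SCI and 11.9 ± 2.35 CPM in sham (0.15 ± 0.23). The L-type pores Cacna1d and Cacna1c had log2 fold changes of -0.02 ± 0.27 and -0.18 ± 0.33, and the T-type pores Cacna1g and Cacna1i of -0.18 ± 0.34 and 0.17 ± 0.36. None of these differed beyond the spread between libraries.

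Cacna1h, the remaining T-type pore, varied most of the alpha1 genes. It had 24, 24 and 7 counts in SCI and 5, 12 and 15 counts in sham, or 2.89, 3.46 and 1.38 CPM against 0.655, 1.15 and 4.06 CPM. Sham 3 was the highest library and sham 1 the lowest. The log2 fold change was 0.64 ± 0.60 (adjusted p = 0.904), 1.49 ± 0.62 without sham 3 (adjusted p = 0.418) and 0.17 ± 0.63 without sham 1.

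The alpha2delta subunits Cacna2d1 and Cacna2d2 bind gabapentin. Cacna2d1 was at 35.4 ± 5.65 CPM in SCI and 32.6 ± 9.99 CPM in sham, and Cacna2d2 at 38.4 ± 6.14 CPM in SCI and 35.8 ± 10.4 CPM in sham. Cacna2d2 was above Cacna2d1 in 4 of 6 libraries, level with it in sham 3 and below it in SCI 3, so their order did not exceed the spread. The groups overlapped in both genes, with log2 fold changes of 0.14 ± 0.23 for Cacna2d1 and 0.12 ± 0.23 for Cacna2d2. Cacna2d3 was at 15.1, 14.4 and 17.8 CPM in SCI and 19.6, 13.5 and 31.9 CPM in sham. Sham 2 lay below all SCI libraries and the other sham libraries above them. Its log2 fold change was -0.43 ± 0.27 (adjusted p = 0.825), and -0.70 ± 0.24 without sham 2 (edgeR unadjusted p = 0.00851, adjusted p = 0.309). Without sham 3 it was -0.07 ± 0.25. Cacna2d4 had 0, 2 and 4 counts in SCI and 7, 1 and 8 counts in sham and was not tested.

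Beta subunits sit on the inner face of calcium channels. Cacnb4 was the most abundant, at 88.7, 93.3 and 81.3 CPM in SCI and 105.5, 73.3 and 114 CPM in sham, with a log2 fold change of -0.15 ± 0.20, or -0.33 without sham 2 and -0.02 without sham 3. Cacnb3 was the only tested channel gene whose groups did not overlap. It had 20, 15 and 17 counts in SCI and 8, 16 and 5 counts in sham, or 2.41, 2.16 and 3.36 CPM against 1.05, 1.54 and 1.35 CPM. Every SCI library was thus above every sham library, by a log2 fold change of 0.97 ± 0.46 with a 95% interval of -0.01 to 1.96, and the gene was not called (adjusted p = 0.682). The 3′ end of Cacnb3 (chromosome 15, 98630840 to 98644529) lies within 1000 bases of Ddx23 on the other strand, and the strand setting of the counting is not given in the sources used here. Cacnb1 and Cacnb2 had log2 fold changes of 0.14 ± 0.23 and -0.13 ± 0.26.

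Cacng2, which encodes stargazin, an AMPA receptor subunit, was the second most abundant member. It was at 169.8, 167 and 85.4 CPM in SCI and 160.02, 164 and 165 CPM in sham. The other 5 libraries lay close together and SCI 3 lay far below them. The log2 fold change was -0.21 ± 0.24 (adjusted p = 0.926), and 0.04 ± 0.20 without SCI 3. In SCI 3 the summed level of 8 oligodendrocyte markers was also the lowest, at 5736 CPM against 6109 to 9529 CPM in the other 5 libraries, and their part in the Cacng2 level was not tested. Cacng3 was at 8.44, 6.62 and 5.14 CPM in SCI and 5.50, 3.55 and 4.87 CPM in sham, with overlap at SCI 3 and sham 1 (log2 fold change 0.57 ± 0.32, adjusted p = 0.757). Cacng4 and Cacng7 were near 20 CPM, with log2 fold changes of 0.06 ± 0.25 and 0.23 ± 0.24. Cacng5 was at 4.01 ± 0.483 CPM in SCI and 4.13 ± 2.52 CPM in sham. Cacng1, a subunit of the muscle calcium channel, had 10 counts in the series and was not tested.

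TRPC channels open downstream of phospholipase C. Trpc1 was at 7.84, 5.90 and 5.73 CPM in SCI and 9.43, 6.91 and 13.0 CPM in sham. SCI 1 lay above sham 2, and the log2 fold change was -0.54 ± 0.30 (adjusted p = 0.754), and -0.76 ± 0.30 without sham 2 (edgeR unadjusted p = 0.0212, adjusted p = 0.465). Without sham 3 it was -0.31 ± 0.31 (adjusted p = 0.823). Trpc5 ranged from 2.59 to 8.08 CPM in SCI and from 3.84 to 6.22 CPM in sham. Trpc4 and Trpc7 had 43 and 24 counts in the series and were not tested.

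Trpc4ap varied least between libraries of the tested members (SE 0.17). Its level was 47.3, 51.7 and 49.4 CPM in SCI and 51.2, 50.1 and 48.7 CPM in sham, and its log2 fold change was -0.02.

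Among TRPM channels, Trpm7, a magnesium-permeable channel fused to a kinase, was at 29.1, 26.5 and 35.2 CPM in SCI and 31.7, 38.3 and 30.8 CPM in sham. Trpm3, a heat-activated channel, was at 31.2, 26.2 and 30.4 CPM in SCI and 29.1, 27.8 and 35.4 CPM in sham. The groups overlapped in both, with log2 fold changes of -0.16 ± 0.19 and -0.06 ± 0.19, and Trpm7 was above Trpm3 in 4 of 6 libraries. Trpm2, which opens under oxidative stress, was at 16.5 ± 3.51 CPM in SCI and 17.8 ± 4.22 CPM in sham (-0.09 ± 0.24). Trpm6 ranged from 0.720 to 3.76 CPM in SCI and from 0.524 to 3.24 CPM in sham, and had the largest SE of the tested members, 0.66. Trpm4, a calcium-activated sodium channel, joins the sulfonylurea receptor SUR1, the product of Abcc8, and that pair is known in rodents for its role in capillary failure after cord injury. Trpm4 had 6, 15 and 8 counts in SCI and 10, 6 and 5 counts in sham. In CPM these were 0.723, 2.16 and 1.58 against 1.31, 0.576 and 1.35, with overlap and a log2 fold change of 0.52 ± 0.60 (95% interval -0.77 to 1.81). Abcc8 was at 5.62 ± 2.12 CPM in SCI and 4.84 ± 1.46 CPM in sham (0.24 ± 0.36).

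TRPV channels were scarce. Trpv2 was at 3.13, 2.30 and 2.17 CPM in SCI and 2.49, 2.50 and 1.89 CPM in sham (log2 fold change 0.13 ± 0.41). Trpv4, a channel that senses swelling, had 5, 2 and 4 counts in SCI and 1, 12 and 0 counts in sham and was not tested. The muscle channel gene Scn4a and the sensory channel gene Trpm8 were among 8 matching symbols with no count, and 8 more had between 1 and 8 counts.

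The sham libraries bracketed the SCI libraries. Sham 2 was the lowest of the 6 libraries for 20 of the 40 tested channel genes and sham 3 the highest for 21. Over all genes tested those shares were 23.3% and 23.1%, against 50% and 52.5% of the channel genes. The summed level of the 48 channel genes was 1297, 1267 and 1144 CPM in SCI 1 to 3 and 1355, 1031 and 1493 CPM in sham 1 to 3. Hepatocyte markers ran the other way among the sham libraries, with 73416, 116754 and 51289 CPM in sham 1 to 3, and lay between 64959 and 75001 CPM in SCI. With their level as a covariate in the fit, 17 log2 fold changes were positive and 23 negative, and 0 channel genes were called. Over all 13560 genes, that fit called 183 higher and 21 lower. Beyond that fit the part of hepatocyte markers in the channel levels was not tested.

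Set against 10 neuron markers, the channel sum was nearly even. It amounted to 23.2, 23.0 and 21.1 CPM per 100 CPM of neuron markers in SCI 1 to 3, and to 21.9, 21.9 and 21.6 in sham 1 to 3. The highest library was 1.10 times the lowest by this measure, and 1.45 times by the channel sum alone. The measure was chosen after the values were seen. Neuron markers themselves, Snap25 and Nefl among them, summed to 5429 to 5582 CPM in SCI and 4714 to 6922 CPM in sham, and 0 of 10 were called. Nefl and Nefm, at mean levels of 1993 and 1799 CPM, made up most of the neuron marker sum. Map2 came next at 429 CPM, so the measure mainly sets the channels against 2 neurofilament genes.

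**Figure D4:**
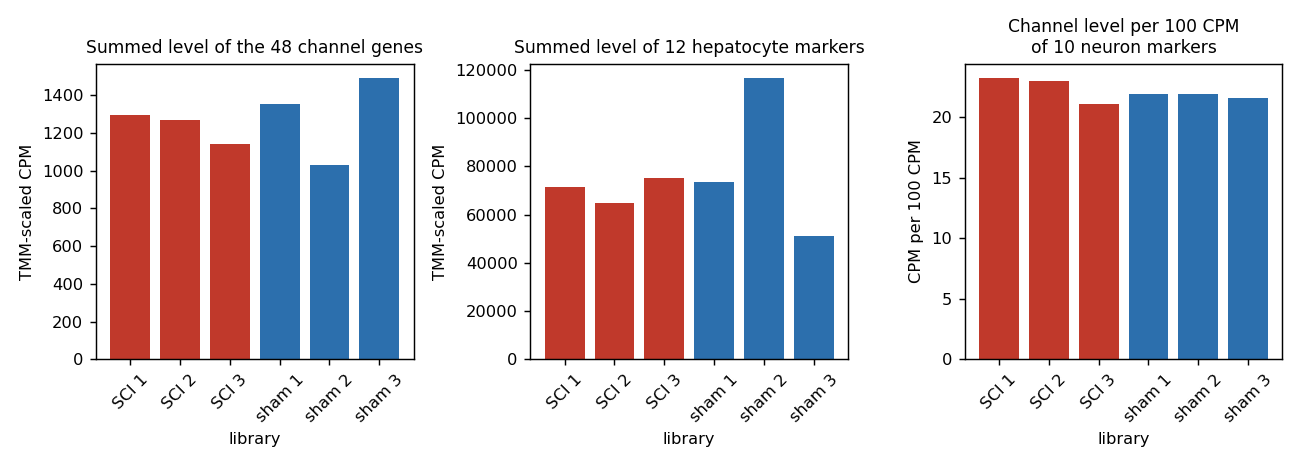
Summed TMM-scaled CPM of the 48 channel genes (left) and of 12 hepatocyte markers (middle) in each library, and the channel sum per 100 CPM of 10 neuron markers (right), with SCI in red and sham in blue and all axes from 0. The channel sum is lowest in sham 2, where hepatocyte markers are highest, and the bars on the right lie between 21.1 and 23.2.

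With sham 2 left out, 12 of 40 tested channel genes had a positive log2 fold change, 28 a negative one, and the median was -0.15. With sham 3 left out, 28 were positive and 12 negative, and the median was 0.18. No channel gene was called in either case. Over all genes tested, 112 were called higher and 12 lower of 13752 without sham 2, and 132 higher and 14 lower of 13950 without sham 3. The balance of signs therefore rested on which sham libraries were in the fit.

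Genes that work with these channels did not pass the test either. Of 68 genes in 7 lists 54 were tested, 0 were called, and the median log2 fold change was 0.01. The called share over all genes tested, 0.929%, is too small for 0 of 54 to set these genes apart. Before adjustment, 1 gene of the 54 had an edgeR p under 0.05, where 7.38% of all genes tested did. That gene was Orai1, the pore of store-operated calcium entry. Orai1 was at 14.8, 17.3 and 19.2 CPM in SCI and 13.0, 10.1 and 12.2 CPM in sham, without overlap (log2 fold change 0.54 ± 0.22, adjusted p = 0.547). Groups were apart in 1 of the 54 related genes, and in 13.7% of all genes tested. Among 12 sodium channel partners the smallest p belonged to Sptbn4, a spectrin of nodes and initial segments (0.39 ± 0.27). All 4 tested genes of the sodium leak channel complex had a negative log2 fold change, as did 6826 of the 13560 genes tested. For all 4, sham 3 was the highest sham library. Nalcn, the pore of the complex, had -0.34 ± 0.25 (adjusted p = 0.868). Pkd2l1, a channel of neurons that contact the cerebrospinal fluid, was at 3.18 ± 0.541 CPM in SCI and 1.98 ± 0.782 CPM in sham (0.78 ± 0.44, adjusted p = 0.768). The acid-sensing channel gene Asic1 had 0.30 ± 0.25, the calcium channel adaptor Stac2 0.30 ± 0.23, and Atp2b4, a calcium pump of the plasma membrane, 0.21 ± 0.22.

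Of 4 genes of factors that bind the AP-1 or EGR1 motif, Egr1, Fosb and Junb rose and Fos was not called. Egr1 was at 110.03 ± 23.6 CPM in SCI and 23.6 ± 7.39 CPM in sham (log2 fold change 2.25 ± 0.24, adjusted p = 0.000132), and Fosb, an AP-1 subunit, at 19.5 ± 12.3 CPM in SCI and 0.765 ± 0.222 CPM in sham (4.63 ± 0.50, adjusted p = 0.000141). The log2 fold change of Junb, another AP-1 subunit, was 1.51 ± 0.25 (adjusted p = 0.00426), and that of Fos 0.79 ± 0.21 (adjusted p = 0.140). Promoter windows of 250 bases before to 50 after the gene start (RefSeq, GRCm38.p6) were found for 36 of the 48 channel genes, 50 windows in all. The AP-1 motif TGANTCA, searched on both strands, was in 1 of the 50, against 7.81% of 32851 windows of all genes. The EGR1 motif GCGTGGGCG was in 1 of the 50, against 0.612% of all. The pair of windows is shown because they are the channel promoters with a match, in lower case with the match in capitals, 5′ to 3′ along the gene's strand.
Cacng5 (chr11:107915006-107915305, minus strand, AP-1 match): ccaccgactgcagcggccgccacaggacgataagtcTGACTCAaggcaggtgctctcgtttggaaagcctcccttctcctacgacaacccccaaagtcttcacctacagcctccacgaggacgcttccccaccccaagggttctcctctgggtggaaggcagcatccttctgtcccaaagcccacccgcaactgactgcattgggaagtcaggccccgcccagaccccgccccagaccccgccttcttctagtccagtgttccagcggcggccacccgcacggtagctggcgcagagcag
Scn7a (chr2:66784861-66785160, minus strand, EGR1 match on the opposite strand): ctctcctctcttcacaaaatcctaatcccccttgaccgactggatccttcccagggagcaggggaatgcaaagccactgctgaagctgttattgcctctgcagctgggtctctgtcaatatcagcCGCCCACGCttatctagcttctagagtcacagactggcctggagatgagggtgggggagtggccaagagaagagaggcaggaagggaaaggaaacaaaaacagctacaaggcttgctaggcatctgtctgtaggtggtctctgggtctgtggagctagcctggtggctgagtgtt
Neither gene differed between groups beyond its spread. Cacng5 had a log2 fold change of 0.06 ± 0.41 and Scn7a of 0.23 ± 0.52. A match in a window is a description of its letters and not a bound site.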

How the data were processed

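RNA of 6 spinal cord libraries (3 SCI, 3 sham) was counted per Ensembl gene. The authors deposited whole-number counts, not normalized, 1 table per library. Per the labels' design text, single-end reads of 50 bases from the Lexogen QuantSeq Forward kit were aligned with STAR 2.7.2b to mm10 with Ensembl annotation, and the submitters' processing notes also name DESeq2 1.24.0. The counting tool, strand setting and treatment of reads with several matches were not given in the sources used here, so near-identical or overlapping genes are uncertain.

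Symbols matched 42462 of 43432 identifiers, and identifiers without one held 0.0884% of counts. Positions came from GENCODE M21 on GRCm38. Genes passed edgeR's filterByExpr (13560), TMM factors scaled the libraries, and a robust quasi-likelihood F test in edgeR 4.0.16 (R 4.3.3) set SCI against sham with no covariate, with Benjamini-Hochberg adjustment over all genes tested. Log2 fold changes are SCI over sham, their SE is the absolute value over the square root of F, and intervals use the t distribution with the test's degrees of freedom. The fit was tested on simulated data. No pair of libraries within a group looked like one library deposited again (chi-square per degree of freedom 6.97 to 38.0). The p-values measure the spread between these libraries. No molecular identifiers were used in counting, as far as the labels say, so counting intervals and limits cover counting error only.

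The members, lists and tests were chosen with earlier results of these data known. Named genes were any called member, the 2 with the smallest p and the 2 most abundant of each family and the smallest p of each related list. Other members are given for completeness and were chosen after their values were seen, and some are not reported here. Alternatives were RLE scaling, total counts, no filter, a filter of 20 counts in 3 libraries, DESeq2 1.42.0, limma voom 3.58.1, the replicate number as a block, hepatocyte or neuron marker levels as a covariate, and leaving out each library.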

Additional observations from a re-analysis of the deposited data

How the results depend on the processing

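No channel gene was called under any of the 15 alternatives, and the smallest adjusted p in them was 0.235 (Scn10a with no filter). Over all genes tested, the fewest calls were 62 higher and 1 lower of 13705, without sham 1. The most were 221 higher and 52 lower of 13560, with the neuron marker level as a covariate. Such shares are too small for 0 calls to set the channel genes apart. The median log2 fold change of tested channel genes ran from -0.15 without sham 2 to 0.18 without sham 3 among the fits that leave out 1 library. It was 0.06 with RLE scaling, 0.05 with total counts, 0.06 with no filter, -0.00083 with the stricter filter, 0.04 with DESeq2 and 0.11 with limma voom. With the hepatocyte level as a covariate it was -0.02 and with the neuron marker level, an alternative chosen after seeing the data, 0.18. With the replicate number as a block 0 members were called higher and 0 lower, and the median was 0.06. Over all 13560 genes, that fit called 81 higher and 1 lower. The deviations of same-numbered libraries from their group means correlated at -0.08, -0.07 and -0.17, which gave no sign that the numbers pair the samples. With 3 libraries in each group this check cannot exclude a pairing. Of 27 named channel genes, 16 kept the sign of their log2 fold change in every alternative that tested them. The other 11 changed sign in at least 1, with no call on either side. The alternatives refit these same libraries, and the named genes include those with the smallest p, so a kept sign is no added evidence of a difference. The related genes had 0 calls in these alternatives, where the shares called over all genes are likewise too small to set them apart. Depth limits the scarce members: 8 had too few counts for the filter, and 14 of the 40 intervals reached past 2-fold.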

Other observations

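Trpv1 and Trpa1, channel genes of pain-sensing neurons under the minimum of 10 counts, were seen mostly in the libraries that held Scn11a. Most of their counts were in sham 2, the deepest library with 11543633 counts, and the part of depth was not tested. Trpv1, the capsaicin receptor, had 0, 2 and 1 counts in SCI 1 to 3 and 0, 5 and 0 counts in sham 1 to 3. Trpa1, a receptor for irritants, had 0, 1 and 0 counts in SCI and 0, 6 and 1 counts in sham. The sensory neuron marker Mrgprd, a receptor that is no channel and none of the genes matched by symbol, had 0, 6 and 1 counts in SCI and 0, 6 and 0 counts in sham.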
